A study of Mus musculus with 9 samples.

Results

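The solute carriers are the genes whose symbol starts with Slc and a number, and they encode most of the membrane proteins that move amino acids, sugars, metals, ions, vitamins and metabolites into cells and between organelles. The number after Slc names the subfamily, which groups carriers of related sequence. Of 384 such symbols in RefSeq (mouse, GRCm38.p6), 172 had a promoter window in the authors' deposited table (44.8%, against 44.7% of all protein-coding genes), from 44 of 51 subfamilies. They are 172 of the 10188 genes with a window. A window was given to a gene when the start position it was built on lay within 1 kb of the gene's 5' boundary on that strand (141 members), otherwise to the single gene that spans it (31 members). Of those 31 windows, 20 lay within 1 kb of another start site that RefSeq annotates for the same gene. For Slc20a2, the only member with more than 1 window, the one with the higher accessibility was used. The symbol rule also takes 5 genes that are not carriers: Slc9a3r1 and Slc9a3r2 (scaffold proteins), Slc4a1ap (an adaptor), Slc7a6os (a gene on the strand opposite Slc7a6) and the pseudogene Slc2a4rg-ps. None of the 5 passed the authors' threshold, and the counts by transport group below leave them out. Those groups were set by subfamily, so a group can hold members that carry other solutes. Counts by subfamily and of all 172 members keep them.

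Carriers work without direct ATP hydrolysis: uniporters let a solute run down its gradient, and exchangers and cotransporters couple it to another solute, often sodium or protons. Dividing blood progenitors depend on them for glucose, essential amino acids, cystine, phosphate, folate, iron and zinc, and the Slc25 carriers connect the cytosol with the mitochondrial matrix. Many subfamilies hold both carriers found in nearly every cell and carriers known mainly from a tissue such as gut, kidney, brain or stomach.

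The cells were HPC7, a mouse hematopoietic progenitor line kept in stem cell factor, and all carried a retroviral MIG vector: empty (EV, the transduction control), with FLAG-tagged wildtype Snai1, or with a mutant named mut5Snai1 (not analysed here). Each of these 3 groups had 3 ATAC-seq libraries, in which the Tn5 transposase tags open DNA. Snai1 is a zinc finger repressor known from epithelial-mesenchymal transition, and the comparison asked which promoters opened or closed when progenitors carried it. The authors' deposited table gives 1 mean log2 concentration (DiffBind's normalized read density of a window) per group, so no library values, SD or n can be printed, and the depth of the libraries is unknown here.

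Changes below are the log2 value of Snai1 minus that of EV, with the authors' FDR. The implied SE is the error that the authors' p-value corresponds to for a change of that size. Whether the 3 libraries of each group go back to independent transductions is not in the labels, and the spread behind the p-values may be technical. The window at the cell's own Snai1 gene fell from 9.81 in EV to 8.43 in Snai1 by the authors' deposited table (implied SE 0.13, FDR 4.17e-26). Of 12 progenitor markers, 11 had a window, among them Kit (11.57 in EV), Spi1 (10.94) and Cd34 (11.45). Of the 11, 3 rose and 2 fell (Cd34 and Runx1), beside 19.6% and 10.3% of all windows. With the median change of neighbouring windows subtracted, 1 of the 11 was called, Tal1, which was higher. Of 5 epithelial markers 0 had a window, and of 5 fibroblast markers 1 did, Pdgfrb (10.14 in EV).

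Most Slc promoters did not pass the test. By the authors' deposited table and an FDR of 0.05, 26 of the 172 members rose, 17 fell and 129 did not pass. That is 25% called, beside 29.9% of all 10271 windows. Rises made up 15.1% of the members, beside 19.6% of all windows, and falls 9.88%, beside 10.3%. The share of called members was close to that of the whole table and is not a result about the family. The median change was 0.085 for the members and 0.08 for all windows. The balance of rises and falls depended on the centre: with the median of all windows subtracted, 13 members were called higher and 26 lower, and with the median of neighbouring windows subtracted, 7 and 16. Among called members the median rise was 0.27 (all windows 0.26) and the median fall -0.40 (all windows -0.41). Only 12 members changed by at least 0.5 log2, 5 upward and 7 downward (6.98%, beside 6.39% of all windows), and 4 by at least 1 (2.33%, beside 2.03%).

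**Figure D1:**
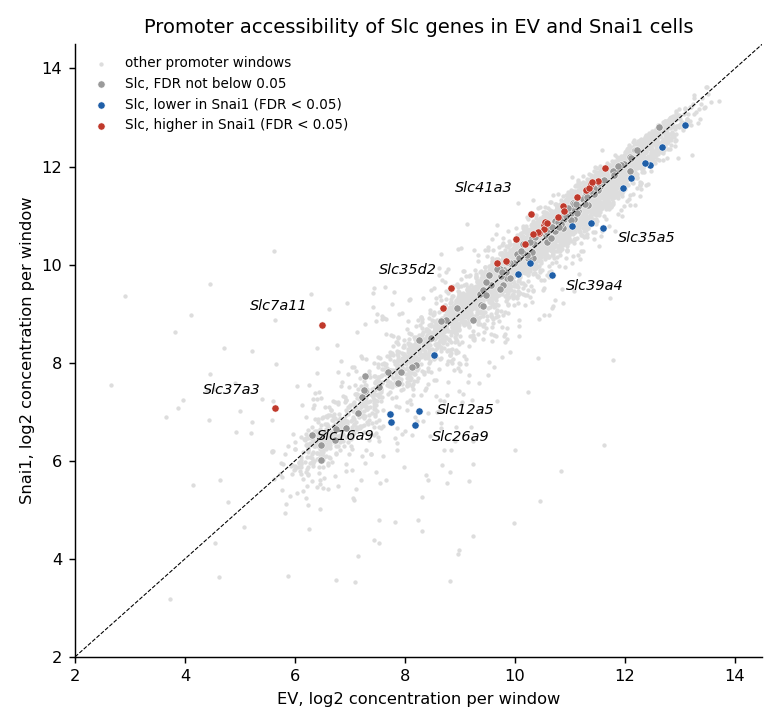
Group means of log2 concentration per window in EV (x axis) and Snai1 (y axis) from the authors' deposited table, with 1 point per window, the 172 Slc members in colour by the authors' call and the other windows in pale grey. The dashed line marks equal values. Most members sit along it, and Slc7a11 (6.49 and 8.77) and Slc37a3 (5.63 and 7.07) lie farthest above, Slc26a9 (8.19 and 6.73) and Slc12a5 (8.26 and 7.02) farthest below.

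Weakly open Slc promoters held most of the wide changes, as did weakly open windows of the whole table. Because the windows have 2 widths, levels of different genes were compared as log2 concentration per kb. Of the 57 members in the least accessible quartile of all windows by this measure (both groups averaged), 8 changed by at least 0.5 (14.0%, beside 17.97% of all windows there). Of the 41 in the most accessible quartile 1 did (2.44%, beside 1.96%). All 4 members changed by at least 1 were in the least accessible quartile. The lowest EV levels were at Slc5a11 (5.48 per kb), a sodium-coupled inositol carrier, Slc37a3 (5.49), Slc16a3 (5.72), a lactate exporter, and Slc11a1 (5.74), the metal carrier of macrophage phagosomes. The highest were at the mitochondrial carrier genes Slc25a42 (12.47) and Slc25a28 (12.06), the zinc importer gene Slc39a10 (12.07) and Slc35f5 (12.10). The 4 lowest lay within about the implied SE of 1 change (0.23 for Slc5a11), and Slc35f5, Slc39a10 and Slc25a28 within that of Slc35f5 (0.09). Slc25a42 stood above them by more than its implied SE (0.09). The implied SE is the error of the change at 1 window and not of a level, so the order of levels between genes was not tested.

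The 4 promoters that changed most are shown as the 250 bases before the start site, from RefSeq (GRCm38.p6), 5' to 3' on the gene's strand, because 2 opened and 2 closed. In each, the window's start position matches a RefSeq start exactly or within 18 bp of the gene's outer boundary. Capitals mark CAGGTG, the core of the E-box that Snai1 is known to bind, or its reverse complement CACCTG, and in Slc7a11 the 7 letters TGATGCA or their reverse complement TGCATCA.
Slc7a11, chr3:50443614-50443863, minus strand: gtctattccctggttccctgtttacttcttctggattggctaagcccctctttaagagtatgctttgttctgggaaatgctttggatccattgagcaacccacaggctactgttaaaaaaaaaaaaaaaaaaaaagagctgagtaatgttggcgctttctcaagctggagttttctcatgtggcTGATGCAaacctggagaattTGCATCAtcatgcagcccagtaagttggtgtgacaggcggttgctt
Slc37a3, chr6:39377708-39377957, minus strand: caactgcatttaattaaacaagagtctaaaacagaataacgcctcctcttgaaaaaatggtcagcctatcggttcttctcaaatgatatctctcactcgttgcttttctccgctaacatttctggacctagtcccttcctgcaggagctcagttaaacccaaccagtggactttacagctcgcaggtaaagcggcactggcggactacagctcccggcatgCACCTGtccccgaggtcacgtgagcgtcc
Slc26a9, chr1:131743772-131744021, plus strand: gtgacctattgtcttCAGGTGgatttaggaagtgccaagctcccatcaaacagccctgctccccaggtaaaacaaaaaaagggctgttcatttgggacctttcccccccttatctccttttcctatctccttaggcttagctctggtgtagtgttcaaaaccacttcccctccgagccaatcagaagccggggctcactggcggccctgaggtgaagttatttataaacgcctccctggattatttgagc
Slc12a5, chr2:164967738-164967987, plus strand: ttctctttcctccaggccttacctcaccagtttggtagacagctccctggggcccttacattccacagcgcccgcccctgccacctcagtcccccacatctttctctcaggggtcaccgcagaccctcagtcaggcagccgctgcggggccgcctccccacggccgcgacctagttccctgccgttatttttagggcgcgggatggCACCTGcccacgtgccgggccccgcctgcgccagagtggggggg
Slc37a3, Slc26a9 and Slc12a5 each hold 1 E-box core, with its first base 29, 235 and 44 bp before the start, and the Slc7a11 stretch holds 0. Of the 127 members whose window matched a RefSeq promoter within 1 kb, 22 hold the core on either strand (17.3%), beside 14.0% of the 8139 genes matched in the same way and 17.2% of all 32851 promoters in the table. It was in 3 of 20 matched members that rose , 2 of 13 that fell and 17 of 94 that did not pass. Among all matched genes the shares were 12.2% of those that rose, 17.1% of those that fell and 14.1% of the rest. A match is a description of the letters and not a sign of binding.

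The Slc7a11 window stood out among those of the amino acid carriers. Slc7a11 encodes xCT, the exchanger that brings in cystine for glutathione synthesis in return for glutamate. Its window (chr3:50443513-50444613, minus strand) lay 55474 bp inside the outer RefSeq boundary of the gene and exactly on another annotated start. In the authors' deposited table its log2 concentration was 6.49 in EV and 8.77 in Snai1. Over both groups it was 8.04, below the 8.81 that bounds the lowest decile of all windows, so this start was weakly open. The change of 2.28 (4.86-fold, implied SE 0.16, FDR 4.16e-46) was the largest rise of any member, and the windows around it had a median change of 0.10. The stretch before this start holds TGATGCA 2 times, in opposite orientation, with first bases 66 and 46 bp before the start. These letters were chosen after the sequence was seen and are part of the composite site through which Atf4 and C/EBP proteins are known to act on genes of the amino acid response. At least 1 copy is in 2.68% of all promoters in the table and 1.46% of matched genes, and at least 2 copies are in 12 of 32851 promoters. Among matched members only Slc7a11 and the sugar carrier gene Slc50a1 hold it. That stretch of Slc7a11 was also poor in CpG, with 2 of them and an observed to expected ratio of 0.17, beside a median of 0.68 over matched members.

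Among the amino acid carriers outside Slc25, those called by the authors' FDR were all higher. The mitochondrial Slc25 carriers are counted apart below, and there Slc25a29, a carrier of basic amino acids, fell while Slc25a12, the aspartate-glutamate carrier, rose. Of the 21 outside Slc25 in the authors' deposited table, 7 rose (33.3%, beside 19.6% of all windows), 0 fell (beside 10.3%) and 14 did not pass. The 21 were set by subfamily. They include Slc43a3, a nucleobase carrier that is among the 7, and Slc6a8, a creatine carrier that did not pass. Their median change was 0.18 against 0.08 for all windows, and 19 of the 21 changes were above 0, as were 6889 of all 10271. Once the neighbour median was subtracted, only Slc7a11 was called. Slc7a8, a carrier of large neutral amino acids, went from 8.69 to 9.11 (0.42, FDR 0.00241), and Slc7a6, an exchanger of cationic and neutral amino acids, from 10.53 to 10.80 (0.27, FDR 0.00154). All 3 members of Slc43, facilitators of large neutral amino acids and nucleobases, had positive values. Slc43a2 (0.35, FDR 0.00279, at an internal annotated start) and Slc43a3 (0.36, FDR 3.82e-04) rose, and Slc43a1 (0.18, FDR 0.112) did not pass. Of the 6 members of Slc38, the sodium-coupled neutral amino acid carriers, Slc38a2 (0.25, FDR 0.0116) and Slc38a6 (0.25, FDR 0.00181) rose. Slc38a1, which brings in glutamine, had 0.18 (FDR 0.0559), and Slc38a10 was the only one of the 6 below 0 (-0.05).

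The other amino acid carriers outside Slc25 did not pass. Slc7a5 and Slc3a2 encode the light and heavy chains of the essential amino acid exchanger, and Slc1a5 a glutamine carrier. In the authors' deposited table Slc7a5 had 11.14 in EV and 11.09 in Snai1 (-0.05, implied SE 0.08, FDR 0.601), Slc3a2 10.89 and 10.92 (0.03, implied SE 0.08, FDR 0.77), and Slc1a5 11.01 and 11.10 (0.09, implied SE 0.08, FDR 0.337). The sodium and chloride coupled Slc6 carriers had 0 of 3 called. For Slc6a9, the glycine carrier of erythroid cells, the change of 0.28 had an implied SE of 0.26, wider than that of 98.6% of all windows, so a change of this size could not be told from the spread of its libraries. The median of the 21 changes less that of their neighbours was 0.06.

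**Figure D2:**
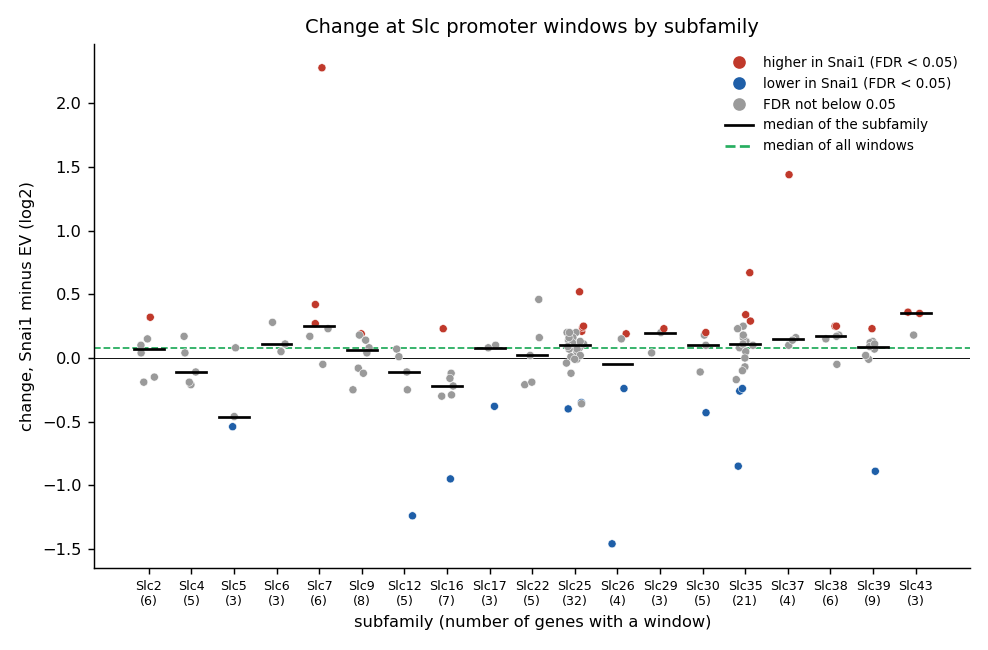
Change in log2 concentration, Snai1 minus EV, of each Slc window in the 19 subfamilies with at least 3 members, coloured by the authors' call, with the subfamily median as a black bar and the median of all windows (0.08) as a dashed line. Slc43 (median 0.35), Slc7 (0.25), Slc29 (0.20) and Slc38 (0.18) lie farthest above that line. Slc5 (-0.46), Slc16 (-0.22), Slc4 and Slc12 (both -0.11) and Slc26 (-0.045) lie below 0. The Slc5 median is the value of Slc5a11, which did not pass.

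Sugar carriers held the second strongest rise. Slc37a3, of the subfamily of sugar phosphate exchangers of the endoplasmic reticulum, rose from 5.63 in EV to 7.07 in Snai1 in the authors' deposited table (chr6:39377607-39378707; change 1.44, 2.71-fold, implied SE 0.23, FDR 1.66e-08). Its level in Snai1, 6.93 per kb, was still far below the 10.16 per kb of the median window in EV. The other 3 members of Slc37 had values from 0.10 to 0.16 and did not pass, among them the glucose-6-phosphate translocase gene Slc37a4 (0.14, FDR 0.194). Of 14 members of sugar carrier subfamilies, 2 rose (14.3%, beside 19.6% of all windows), 1 fell (7.14%, beside 10.3%) and 11 did not pass. The 14 include Slc5a6, a multivitamin carrier (0.08, FDR 0.398), which is not counted with the vitamin carriers below. Slc2a6, a facilitative hexose carrier of lysosomes, rose from 10.87 to 11.19 (0.32, FDR 0.0012). Slc2a1, the main glucose importer of blood cells, had 11.79 and 11.89 (0.10, implied SE 0.09, FDR 0.432). The Slc2a3 window, 59618 bp inside its gene, had 9.79 and 9.59, with the widest implied SE of any member (0.30) and an FDR of 0.664. Slc5a3, which imports the osmolyte inositol, fell from 11.38 to 10.84 (-0.54, FDR 2.94e-11) on chromosome 16, where its neighbours had a median of -0.60. Slc45a3, on chromosome 1, had 0.18 (FDR 0.0668) among neighbours with a median of -0.24 and was called higher once that median was subtracted (adjusted p from the re-test 2.76e-06).

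Carriers of inorganic ions and protons held the strongest falls. Slc26a9 encodes a chloride channel and anion exchanger known from stomach and airway epithelium. Its window (chr1:131743022-131745022), at the annotated start, fell from 8.19 in EV to 6.73 in Snai1 in the authors' deposited table (-1.46, 2.75-fold lower, implied SE 0.16, FDR 9.84e-19). Its neighbours on chromosome 1 had a median of -0.22, and the difference from them, -1.24, was still called. Slc12a5 encodes KCC2, the potassium-chloride cotransporter of neurons. Its window (chr2:164966988-164968988), on an annotated start 7142 bp inside the gene, fell from 8.26 to 7.02 (-1.24, 2.36-fold lower, implied SE 0.19, FDR 1.55e-09). The other 4 Slc12 members had values from -0.25 to 0.07, among them Slc12a2, the sodium-potassium-chloride cotransporter NKCC1 of most cells (10.59 and 10.67, FDR 0.527).

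Of the 23 ion carriers, 4 rose, 3 fell and 16 did not pass, with a median of -0.08. The third that fell was Slc26a11 (-0.24, FDR 0.0177), whose window also holds the start of the lysosomal sulfatase gene Sgsh on the other strand. The 4 that rose changed by 0.19 to 0.26. Slc20a1, a sodium-phosphate importer, rose from 11.39 to 11.65 (FDR 9.01e-04), and its paralogue Slc20a2 from 10.53 to 10.72 (FDR 0.0216). A second Slc20a2 window, 3591 bp inside the gene, had 6.74 and 6.40 (FDR 0.216). The sulfate carrier gene Slc26a2 rose by 0.19 (FDR 0.0348) and the sodium-proton exchanger gene Slc9a5 by 0.19 (FDR 0.0178). With the neighbour median subtracted, 0 of the 23 were higher and 6 lower. The scaffold gene Slc9a3r2, which is not among the 23, was also called lower. Across all windows that re-test called 5.15% higher and 8.39% lower.

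Monocarboxylate carriers differed within the subfamily. Slc16a1 (MCT1), which moves lactate and pyruvate, rose from 11.30 to 11.53 in the authors' deposited table (0.23, implied SE 0.07, FDR 0.00644). Slc16a9 fell from 7.74 to 6.79 (-0.95, implied SE 0.17, FDR 4.82e-07). The other 5 of the 7 members had values between -0.30 and -0.12 and did not pass. That is 14.3% higher and 14.3% lower, beside 19.6% and 10.3% of all windows. Slc16a3 (MCT4), the lactate exporter of glycolytic cells, had 6.72 and 6.42 (implied SE 0.23, FDR 0.333), near the lowest levels of the family.

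Metal carriers moved both ways, as did the windows of the whole table. Of 19 in the authors' deposited table, 3 rose (15.8%, beside 19.6% of all windows), 4 fell (21.1%, beside 10.3%) and 12 did not pass. Slc39a4 (ZIP4), the zinc importer of the gut, fell from 10.67 to 9.78 (-0.89, implied SE 0.10, FDR 6.59e-17) at a window 1654 bp inside the gene, while its neighbours had a median of 0.13. The riboflavin carrier gene Slc52a2, 77.9 kb away, rose by 0.29 (FDR 0.00139). Slc30a1, the zinc exporter of the plasma membrane, fell from 12.46 to 12.04 (-0.43, FDR 3.91e-07) among chromosome 1 neighbours with a median of -0.27. Both Slc31 genes fell, on chromosome 4 and 69.2 kb apart: Slc31a1, the copper importer CTR1 (-0.28, FDR 0.0136), and Slc31a2 (-0.75, FDR 1.05e-04), whose window lay 11154 bp inside the gene. Their neighbours had a median of -0.25, and only Slc31a2 was called against it.

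Slc41a3, of a subfamily of magnesium carriers, rose from 10.29 to 11.04 (0.75, implied SE 0.10, FDR 2.25e-13) at an annotated start 14516 bp inside the gene in the authors' deposited table. Slc30a7 (0.20, FDR 0.0257), a zinc carrier of the Golgi, and Slc39a9 (0.23, FDR 0.00221) also rose, and both windows hold the start of another gene on the other strand (Extl2 and Erh). Slc39a10, the zinc importer of blood cells, had 12.21 and 12.33 (FDR 0.298). Slc11a2 (DMT1), the iron importer of erythroid cells, had 10.30 and 10.26 (FDR 0.816), and Slc11a1 6.74 and 6.64 (implied SE 0.27, FDR 0.806).

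**Figure D3:**
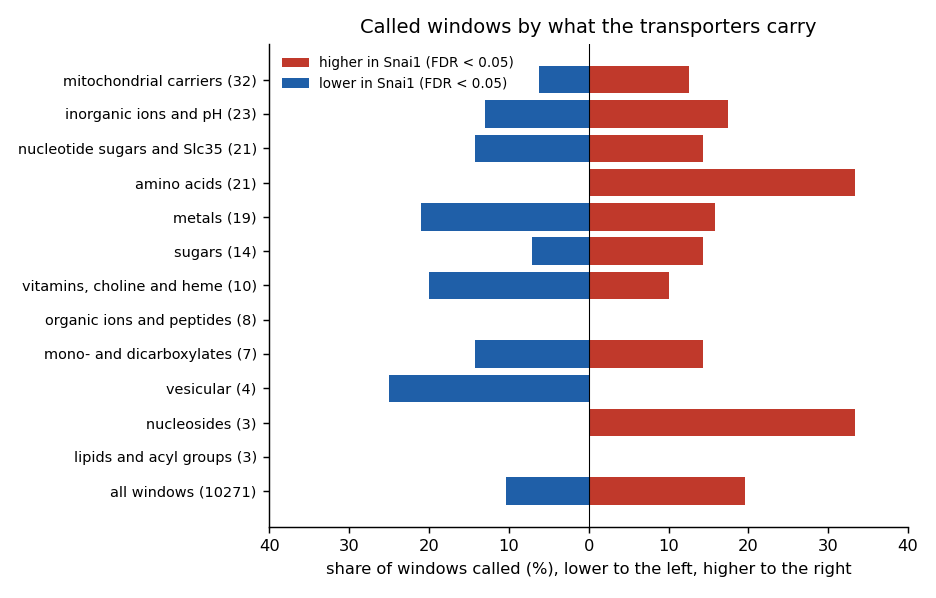
Share of windows called higher (right) or lower (left) in Snai1 at the authors' FDR of 0.05, in percent. Rows are all 10271 windows and carriers grouped by subfamily, under what the subfamily mainly moves. The number of windows is in brackets. Amino acid carriers, counted by subfamily without Slc25, have 7 of 21 higher and 0 lower, and all windows 19.6% and 10.3%. The 7 include the nucleobase carrier gene Slc43a3.

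The largest subfamily, Slc25, exchanges metabolites, nucleotides and cofactors across the inner mitochondrial membrane. Of its 32 members in the authors' deposited table (of 48 in RefSeq), 4 rose (12.5%, beside 19.6% of all windows), 2 fell (6.25%, beside 10.3%) and 26 did not pass, with a median of 0.105. Whether Slc25 differs from the rest was not tested. With the median of all windows subtracted, 1 was called higher and 3 lower. Their EV levels ran from 8.24 to 12.47 per kb with a median of 10.44, against 10.16 for all windows. Slc25a24, a calcium-regulated carrier of ATP-magnesium and phosphate, rose from 10.01 to 10.52 (0.52, implied SE 0.08, FDR 4.6e-09) and was the only one called against its neighbours. Slc25a12, the aspartate-glutamate carrier, rose by 0.21 (FDR 0.0236), Slc25a26, which imports S-adenosylmethionine, by 0.24 (FDR 0.0145), and Slc25a30 by 0.25 (FDR 0.00486). The 2 that fell were the citrate carrier gene Slc25a1 (-0.40, FDR 6.25e-05; neighbours -0.24) and Slc25a29, a carrier of basic amino acids (-0.35, FDR 0.00132; neighbours -0.42), on chromosomes 16 and 12. The ADP/ATP carrier genes Slc25a4 (-0.04, FDR 0.753) and Slc25a5 (0.09, FDR 0.515), and Slc25a38, which supplies glycine for heme synthesis (11.01 and 11.03, FDR 0.843), did not pass.

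Slc35 brings nucleotide sugars into the Golgi and endoplasmic reticulum for glycosylation. Of its 21 members in the authors' deposited table (of 27 in RefSeq), 3 rose and 3 fell (14.3% each, beside 19.6% and 10.3% of all windows) and 15 did not pass, with a median of 0.11. Slc35d2 rose from 8.84 to 9.52 (0.67, implied SE 0.11, FDR 2.98e-08). The CMP-sialic acid carrier gene Slc35a1 rose by 0.34 (FDR 0.00158) and Slc35b3, which moves the sulfate donor PAPS, by 0.29 (FDR 0.0248). Slc35a5 fell from 11.60 to 10.75 (-0.85, implied SE 0.08, FDR 3.94e-27), in a part of chromosome 16 where the neighbours had a median of -0.81, and its window also holds the start of the autophagy gene Atg3. Slc35d1 fell by 0.26 (FDR 0.0244) at an internal window, and Slc35f5 by 0.24 (FDR 0.0318) among chromosome 1 neighbours with a median of -0.23. Slc35d2 and Slc35d1 were called against their neighbours in the same directions, and the other 4 were not.

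Among the smaller groups, the vitamin, choline and heme carriers had 1 higher and 2 lower of 10 by the authors' deposited table. Over all windows the shares were 19.6% higher and 10.3% lower. The thiamine carrier gene Slc19a2 changed by -0.27 (FDR 0.00352; neighbours -0.25), and Slc49a4 by -0.23 (FDR 0.0276; neighbours -0.36). The folate carrier gene Slc19a1 had 11.43 and 11.56 (FDR 0.141) and the heme carrier gene Slc48a1 10.92 and 11 (FDR 0.422). Of 3 nucleoside carriers, Slc29a2 (ENT2) rose by 0.23 (FDR 0.0113) and Slc29a1 (ENT1) had 7.25 and 7.45 (FDR 0.427), both at windows inside the gene. Of 4 vesicular carriers, Slc17a9, which loads ATP into vesicles, fell by 0.38 (FDR 0.0155), and Slc18a2, which loads monoamines in mast cells and neurons, had 10.83 and 10.82 (FDR 0.983). The 8 organic ion and peptide carriers and the 3 lipid and acyl carriers had 0 called by the authors' FDR. Of those 11, 2 in Slc22, the carnitine carrier gene Slc22a5 (-0.19) and Slc22a17 (-0.21), were called lower against their neighbours.

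Where an Slc gene lies on the chromosome went with its change. Of the 17 members that fell in the authors' deposited table, 12 were on chromosomes 1, 4, 12 and 16, which hold 25 of the 172 members. Those chromosomes also held 603 of the 1060 windows that fell in the whole table. On those chromosomes 3 of the 25 rose (12%) and 12 fell (48%), beside 14.2% and 31.5% of all windows there (45.7% called). On the other chromosomes 23 of 147 rose (15.6%) and 5 fell (3.40%), beside 20.9% and 5.47% of all windows there (26.3% called). All 4 members on chromosome 16 fell: Slc5a3, Slc25a1, Slc35a5 and Slc49a4. On that chromosome 66.9% of all 335 windows fell and 82.4% were called.

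Each window's change was then set against the median of the 20 nearest windows on either side and tested again with the implied SE. This called 7 members higher and 16 lower, 13.4% of the 172, beside 13.5% of all windows. Of the 26 that had risen, 6 were called in the same direction: Slc7a11, Slc37a3, Slc41a3, Slc35d2, Slc25a24 and Slc2a6. Of the 17 that had fallen, 8 were: Slc26a9, Slc12a5, Slc16a9, Slc39a4, Slc31a2, Slc17a9, Slc35d1 and Slc26a11. The remaining 20 and 9 were not called, and 9 others, 1 higher and 8 lower, were called only in the re-test. Whether the shared shift of neighbouring windows reflects accessibility or the amount of DNA was not tested.

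**Figure D4:**
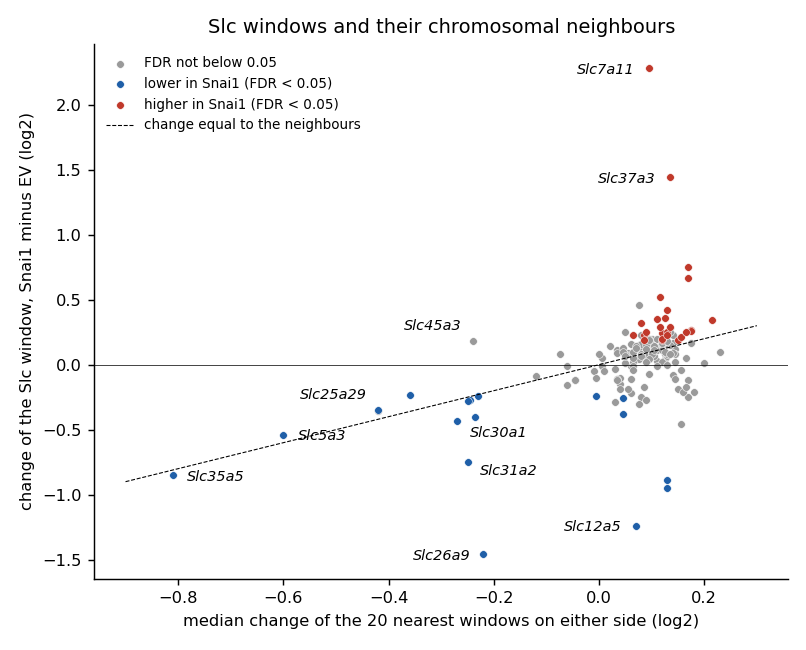
Change of each Slc window, Snai1 minus EV in log2 (y axis), against the median change of the 20 nearest windows on either side on its chromosome (x axis), coloured by the authors' call, with a dashed line where both are equal. Slc35a5 and Slc5a3 lie near the line at -0.85 and -0.54, whereas Slc7a11, Slc37a3, Slc12a5 and Slc26a9 lie far from it.

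Neighbouring Slc genes did not always move together. Within 100 kb of one another lay 8 pairs of members, and in 1, Slc31a1 and Slc31a2, both were called, in the same direction. In the pair of Slc52a2 and Slc39a4 the calls were opposite, and in the other 6 pairs at most 1 member was called. Of the 172 windows, 27 also hold the start of another gene on the other strand by the RefSeq promoter table. By the authors' deposited values 6 of these rose and 5 fell (22.2% and 18.5%), and of the 145 others 20 and 12 (13.8% and 8.28%). Over all windows the shares were 19.6% and 10.3%. In these 27 the reads of both starts are counted together.

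Other membrane transport genes were counted from lists set with the family, by the authors' deposited table. Of 23 ABC transporters with a window, 4 rose (17.4%, beside 19.6% of all windows) and 6 fell (26.1%, beside 10.3%), and with the neighbour median subtracted 0 were called higher and 3 lower. The widest change was at Abcg1, a sterol exporter (-0.86, FDR 1.39e-15). Of 23 carriers with Slco, Mfsd, Sfxn or Mpc symbols, 5 rose (21.7%) and 1 fell (4.35%), all by less than 0.3, and against neighbours 0 were called higher and 3 lower. Of 4 partner subunits and sodium pump genes with a window, 0 were called by the authors' FDR (unadjusted p 0.119 to 0.401), among them Bsg, the chaperone of Slc16a1 (-0.13, FDR 0.24). Of 16 regulators of transporter genes, 1 rose, Txnip, which promotes removal of Slc2a1 from the surface (0.26, FDR 0.00296), and 1 fell, the lysosomal regulator gene Tfeb (-0.41, FDR 5.85e-05). Atf4, which drives many amino acid carrier genes, had 11 and 11.13 (0.13, implied SE 0.08, FDR 0.236). Abcg1, Txnip and Tfeb were named after their values were seen.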

How the data were processed

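The deposited table compares EV and Snai1 at promoters. The tools, per the submitters' processing notes, were fastp, Bowtie2, DiffBind and Picard, on mm10. For versions, peak calling, scaling and any shift of reads: not given in the sources used here. Per the file headers it holds the authors' log2 concentrations, 1 mean per group, their log2 fold (EV minus Snai1, sign turned here), p-value and FDR, which equalled a Benjamini-Hochberg adjustment over the rows within 0.00136. The 10274 rows include 3 exact repeats, used once. There were 0 columns of values per sample, so no test across libraries was run. Windows of 2001 bp (1000 bp before and 1000 bp after the start) were taken as plus strand and those of 1101 bp (1000 and 100 bp) as minus strand.

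Genes came from RefSeq GRCm38.p6, the same coordinates as mm10, with strand from its promoter table where that gives one (not for 40 of the 172 members, 8 of them assigned by spanning). A protein-coding gene was taken before others. This left 8957 windows at a gene start, 1276 inside a gene and 38 with no gene. The implied SE divides the change by the normal deviate that matches p. For changes under 0.1, or p listed at 0 or 1, it is the median of the window's accessibility bin (20 bins). Its median was 0.08 over all windows and 0.18 in the lowest decile. The re-test divides the centred change by it, with Benjamini-Hochberg adjustment over all windows, and was tested on simulated data. Python 3.11.15, pandas 2.3.3, numpy 2.4.6 and scipy 1.17.1 were used.

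The members, lists and tests were chosen with earlier results of these data known. The text names called members changed by at least 1, the largest called rise and fall in each subfamily of at least 3, the 3 highest and 3 lowest windows by accessibility, and 21 of 27 listed blood carriers that had a window. Other members were named after their values were seen. The values of 1 member are not reported here. Of the 21, 4 rose, 1 fell and 16 did not pass, where 19.6% of all windows rose and 10.3% fell.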

Additional observations from a re-analysis of the deposited data

How the results depend on the processing

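Direction and count of the Slc calls depended on the threshold and the centre. Taking only windows within 1 kb, or leaving out the lowest decile of accessibility, kept all Slc, Slc25 and Slc35 counts within 1.5 times. Taking the window with the smallest p, or the one nearest the gene start, could not change any count. Only Slc20a2 had more than 1 window, and both rules pick the one already used. Against 26 higher and 17 lower Slc windows, only starts within 100 bp gave 13 and 10 (of 101 genes), FDR 0.01 gave 17 and 11, and a change of at least 0.5 gave 5 and 7. Subtracting the median of all windows gave 13 and 26, since it lowers every change by 0.08, and subtracting the neighbour median gave 7 and 16. Added after seeing the data, leaving out chromosomes 1, 4, 12 and 16 gave 23 and 5, and transporters only 26 and 17. For Slc25 (4 higher, 2 lower), FDR 0.01 gave 2 higher, a change of at least 0.5 gave 1 and 0, the median of all windows 1 higher, the neighbour median 1 and 0, and leaving out the 4 chromosomes 0 lower. For Slc35 (3 and 3), starts within 100 bp gave 1 and 1, FDR 0.01 gave 1 lower, a change of at least 0.5 gave 1 and 1, the neighbour median 1 and 1, and leaving out the 4 chromosomes 0 lower. The medians moved by less than the median implied SE of the members under each setting, down to 0.005 for all Slc windows. Of the 46 genes named by rule, 8 kept the sign but lost the call with the median of all windows subtracted. With the neighbour median subtracted, 15 did. The sign turned for Slc25a38 (-0.06 and -0.045), Slc3a2 (-0.05 and -0.08) and Slc48a1 (0.00 and -0.055) under these 2 settings, none of them called. Slc5a3 also turned under the second (0.06) and lost its call. Apart from fewer genes or a stricter rule, the cause was not tested. No paired analysis was possible because the table holds group means without library values, and for the same reason no library could be left out. Small changes were hardest to call at weakly open windows, where the median implied SE was 0.18.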
